A study of Mus musculus with 119 samples.

Results

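Prostaglandin E2 is made and sensed by macrophages, and 5 genes of this pathway were followed here: the cyclooxygenases Ptgs1 and Ptgs2, the terminal synthase Ptges, and the receptors Ptger2 and Ptger4. The genes were chosen by symbol and are 5 of the 18098 genes in the table. Each reached a linear value of 10, the limit below which a gene was not tested, in every library. The cells were bone marrow-derived macrophages (BMDMs) of C57BL/6(NIMR) mice, grown in L-cell conditioned medium and kept in low serum overnight, then left unstimulated or given 100 ng/ml LPS, the bacterial ligand of TLR4. WT cells gave 22 libraries (6 unstimulated, 6 at 0.5 h, 6 at 1 h, and 4 at 2 h of LPS). Map3k8[D270A] cells, whose TPL-2 protein kinase is without catalytic activity, gave 24 (6 at each of these times). Elk1-/-Elk4-/- cells, which lack a pair of ternary complex factors (TCFs) that ERK1/2 phosphorylate, gave 16 (4 at each time). Nfkb1[SS/AA] cells, in which a mutation of the NF-kB precursor p105 blocks TPL-2 activation by LPS, gave 18 (6 each without LPS and at 0.5 and 1 h). WT cells were also treated with 0.1 µM PD0325901, an inhibitor of the ERK1/2 kinases MKK1/2, for 10, 40, or 70 min without LPS (3 libraries each) or for 10 min before 0.5 or 1 h of LPS (6 each), with DMSO for 10 min (3), or with 2 µM RSKi47, an inhibitor of the ERK1/2 target RSK, for 10 min alone (4) or before 0.5 h (3), 1 h (4), and 2 h (4) of LPS. The ages and sexes of the mice are not in the labels.

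The cyclooxygenases oxidize arachidonic acid, released from membranes by phospholipases A2, to prostaglandin H2. COX-1, the product of Ptgs1, is the constitutive enzyme in most tissues, and COX-2, the product of Ptgs2, is the inducible one and a classical LPS response gene of macrophages. Microsomal prostaglandin E synthase 1, the product of Ptges, converts prostaglandin H2 to prostaglandin E2 and is induced later than COX-2 in activated macrophages. The receptors EP2 (Ptger2) and EP4 (Ptger4) both couple to Gs and raise cAMP, through which prostaglandin E2 restrains or shifts cytokine production by macrophages.

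In WT cells LPS raised Ptgs2 within 0.5 h, Ptges from 1 h, Ptger4 from 0.5 h, and Ptger2 at 2 h only among the times sampled, while Ptgs1 was nearly flat. In Map3k8[D270A] cells Ptgs2 was lower at 1 and 2 h, and Ptges and Ptger2 were lower at 2 h, whereas no difference was called in Ptger4. Ptger2 at 2 h was lower than in WT in Map3k8[D270A], Elk1-/-Elk4-/-, and RSKi47-treated cells, with differences from WT of -1.15 to -0.997 on the deposited log2 scale. At 1 h Ptgs2 was lower in Map3k8[D270A] and Nfkb1[SS/AA] cells but had no called difference in Elk1-/-Elk4-/-, PD0325901-treated, or RSKi47-treated cells. Ptges at 2 h was furthest below WT with RSKi47.

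The bases just before the start of transcription are shown for the 4 genes that LPS raised, because these are the promoter-proximal sequences through which NF-kB, C/EBP, CREB, and ETS-family factors are known to act on LPS-induced genes. Each line holds 280 bases on the strand of the gene, 250 before and 30 from the RefSeq start, in GRCm38.p6 (the assembly of mm10), and capitals mark matches to the motifs searched for on both strands. Ptgs2 lies on chromosome 1 from 150100031 to 150108234 (plus strand), and the bases shown are chr1:150099781-150100060. Ptges lies on chromosome 2 from 30889471 to 30931020 (minus strand), with the bases shown at chr2:30903268-30903547, so that the start used here is internal to the annotated span. Ptger2 lies on chromosome 14 from 44988111 to 45003820 (plus strand), shown at chr14:44987861-44988140. Ptger4 lies on chromosome 15 from 5233399 to 5244187 (minus strand), shown at chr15:5244158-5244437. Ptgs1 lies on chromosome 2 from 36216742 to 36258593 (plus strand), and its window (from 36230176 to 36230455, also internal to the annotated span) held no match and is not printed.
Ptgs2: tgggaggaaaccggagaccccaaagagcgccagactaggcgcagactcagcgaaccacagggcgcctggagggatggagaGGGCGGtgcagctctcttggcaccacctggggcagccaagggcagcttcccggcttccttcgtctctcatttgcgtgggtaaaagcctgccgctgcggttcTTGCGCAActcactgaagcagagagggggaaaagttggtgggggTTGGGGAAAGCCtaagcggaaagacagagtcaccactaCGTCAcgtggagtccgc
Ptges: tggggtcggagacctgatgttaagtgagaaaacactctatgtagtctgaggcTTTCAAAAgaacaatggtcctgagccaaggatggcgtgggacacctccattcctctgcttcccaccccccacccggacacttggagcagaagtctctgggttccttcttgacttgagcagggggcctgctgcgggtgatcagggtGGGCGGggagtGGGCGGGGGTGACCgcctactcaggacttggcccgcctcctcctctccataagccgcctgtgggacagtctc
Ptger2: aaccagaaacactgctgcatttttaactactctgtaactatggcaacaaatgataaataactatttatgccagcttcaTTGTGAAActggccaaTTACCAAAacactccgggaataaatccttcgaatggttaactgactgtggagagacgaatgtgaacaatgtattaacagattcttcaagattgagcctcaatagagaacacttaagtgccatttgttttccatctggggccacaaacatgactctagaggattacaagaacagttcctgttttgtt
Ptger4: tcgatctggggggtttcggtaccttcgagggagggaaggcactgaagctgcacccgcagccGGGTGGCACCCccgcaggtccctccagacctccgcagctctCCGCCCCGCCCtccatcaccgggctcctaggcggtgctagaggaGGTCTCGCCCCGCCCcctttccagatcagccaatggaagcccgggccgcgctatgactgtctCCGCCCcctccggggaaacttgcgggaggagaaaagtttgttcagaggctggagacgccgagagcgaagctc

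The letters searched for were GGG followed after any 5 bases by CC for NF-kB, TTNCNNAA for C/EBP, TGACG for a CRE half-site, GGGCGG for a GC box, TGANTCA for AP-1, CCGGAA for an ETS core, and the CArG box of serum response factor. Of 32851 mouse promoter windows in RefSeq, 48.9%, 39.3%, 19.9%, 34.7%, 7.46%, 14.2%, and 1.56%, in that order, held a match. In Ptgs2 an NF-kB match lay 23 to 14 bases before the start and overlapped 1 of its 2 C/EBP matches. The Ptgs2 window was the only one of the 5 with a CRE half-site, which lay after the start. Ptges had 1 NF-kB match, which overlapped 1 of its 2 GC boxes, and 1 C/EBP match. Ptger4 had 3 NF-kB matches, 2 of them overlapping, and 4 GC boxes, some of which overlapped each other or an NF-kB match. Ptger2 had 2 C/EBP matches and no other, in the window with the lowest G and C content of the 5 (37.9% against 66.8% for Ptger4). AP-1, ETS core, and CArG letters were in none of the 5 windows, and a match or its absence is a description of these letters alone.

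All values are on the log2 scale as deposited, normalised across libraries but not per gene length, so levels are compared between libraries and not between genes. No source used here gives the transformation behind them, and it may have drawn libraries together, so a difference is given on the deposited log2 scale and not as a ratio of counts. The depth of single libraries is unknown, and precision comes from the spread between replicates. No libraries were identical. With PD0325901 and LPS, libraries whose numbers differ by 3 were closer to each other over all genes (root mean square difference 0.112 to 0.125 at 0.5 h and 0.117 to 0.131 at 1 h) than most other pairs (0.126 to 0.152 and 0.128 to 0.163). The labels do not say whether these are repeats, in which case n is 3 rather than 6, and with such pairs averaged 0 of 30 results for the members changed. The sum of 8 macrophage markers (log2 of the summed linear values) was 18.35 to 19.23 in all libraries, and that of 4 T cell markers 0.97 to 1.37. The macrophage sum was lower in Elk1-/-Elk4-/- than in WT libraries at each time, without overlap (18.35 to 18.44 against 18.61 to 18.80 without LPS). At 2 h it was 18.87 to 19.00 in WT, 18.64 to 18.71 in Elk1-/-Elk4-/-, and 18.67 to 18.86 in Map3k8[D270A] libraries. With RSKi47 at 1 h it was above WT (18.92 to 18.98 against 18.74 to 18.91). The sum of 8 neutrophil markers was 6.24 to 7.74 in WT libraries, 10.04 to 11.04 in Elk1-/-Elk4-/- libraries, and 8.09 to 8.81 with PD0325901 and LPS, with Elane, Mpo, and Ly6g below a linear value of 10 in each of these groups. That of 5 platelet and megakaryocyte markers was 10.64 to 11.51 in WT and 11.51 to 12.11 in Elk1-/-Elk4-/- libraries, without overlap at any one time, with Itga2b and Gp9 below 10 in each group of both. That of 4 B cell markers, 3 of them below 10 in each group, was 5.52 to 6.47 in WT, 6.45 to 7.08 in Elk1-/-Elk4-/-, and 5.27 to 5.64 in RSKi47 libraries. That of 5 mast cell and basophil markers, 4 of them below 10 in each group, was 6.46 to 6.74 in WT and 8.07 to 8.999 in Elk1-/-Elk4-/- libraries at 2 h. The sum of 4 fibroblast markers was 3.91 to 4.90 in WT and 5.04 to 9.41 in RSKi47 libraries, with Col3a1 and Dcn below 10 in each group of both. The part of these in the differences below was not tested, and in bulk RNA fewer cells of a type and less RNA per cell cannot be told apart. Elk1 and Elk4, the deleted genes, were at 6.17 to 6.59 and 5.51 to 5.88 in Elk1-/-Elk4-/- libraries and higher in every WT library, and Map3k8[D270A] and Nfkb1[SS/AA] are point mutations that mRNA levels do not check.

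The WT libraries carry the label of the Map3k8[D270A] experiment, and the other cells carry labels of experiments of their own, without WT libraries among those used here. Genotype or inhibitor and experiment cannot be told apart in these comparisons, which share the WT libraries as control, and no library had DMSO with LPS. The change with LPS within an experiment, set against that of WT, takes out a difference already present before LPS, and is given beside the direct difference. Another pair of features of the libraries bear on the members. WT replicates 4 to 6 and Map3k8[D270A] replicates 1 to 3 (the first set) differed from WT replicates 7 to 9 and Map3k8[D270A] replicates 4 to 6 (the second set, with a single WT library at 2 h) in Ptgs2, and the labels name no such sets. RSKi47 replicate 4 stood apart from the other RSKi47 libraries in several members, and values without it are given. Adjusted p values are from limma with Benjamini-Hochberg adjustment over all genes tested, a difference with an adjusted p below 0.05 is called, errors of differences are SE, and p values measure the spread between these samples.

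**Figure D1:**
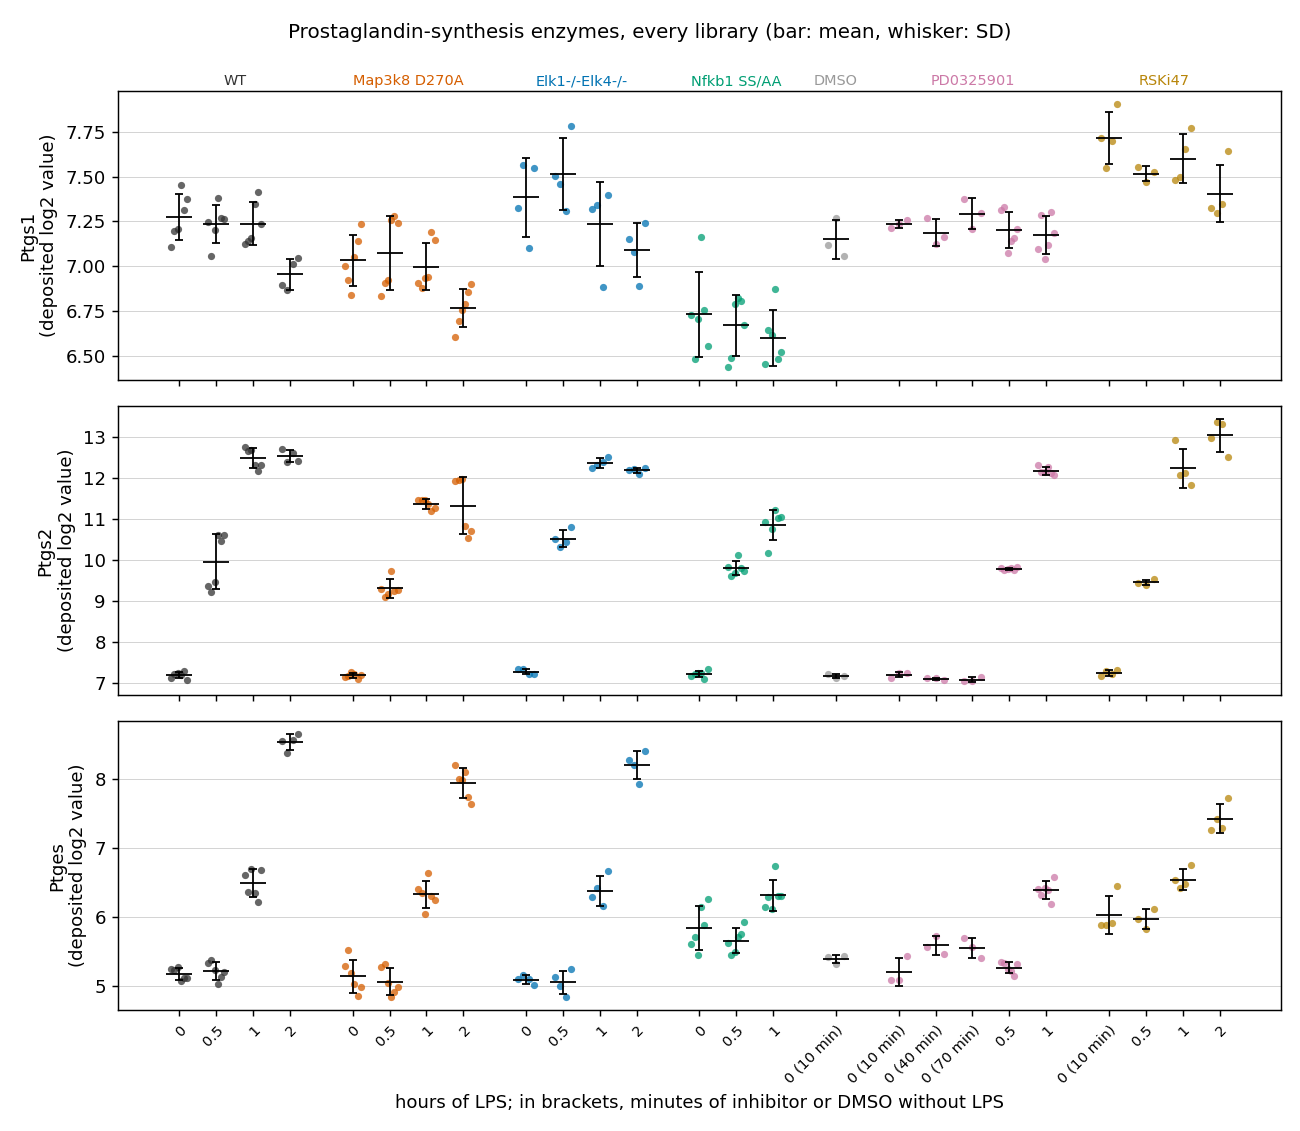
Levels of Ptgs1, Ptgs2, and Ptges on the deposited log2 scale (y axis) in the 25 groups (x axis, by genotype or inhibitor and time of LPS). Each point is a library, each bar the mean of its group, and each whisker its SD. Ptgs2 rises from about 7.2 to above 12 in WT, Ptges rises from 1 h, and Ptgs1 stays between 6.44 and 7.90.

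Ptgs1 was a steady gene with respect to LPS. WT levels were 7.11, 7.26, and 7.45 (lowest, median, and highest of 6) without LPS, 7.06, 7.25, and 7.38 at 0.5 h, and 7.12, 7.20, and 7.42 at 1 h. At 2 h the 4 WT libraries were at 6.89, 6.87, 7.01, and 7.04, all below every unstimulated library. The difference at 2 h was -0.32 ± 0.10 (adjusted p = 0.00313), and with quantile normalization it was -0.19 and no longer called (adjusted p = 0.0819). LPS thus moved Ptgs1 little, and its larger differences were between experiments. In Nfkb1[SS/AA] libraries it was lower than in WT at each time, at 6.48, 6.72, and 7.16 (lowest, median, and highest) without LPS and 6.46, 6.57, and 6.88 at 1 h. The differences were -0.54 ± 0.09 without LPS (adjusted p = 1.88e-07), -0.57 ± 0.09 at 0.5 h (adjusted p = 6.19e-08), and -0.64 ± 0.09 at 1 h (adjusted p = 9.49e-10). RSKi47-treated cells lay on the other side of WT. They were at 7.72, 7.55, 7.70, and 7.90 without LPS, above each of the 6 WT libraries, and at 7.33, 7.30, 7.35, and 7.64 at 2 h. The differences were 0.44, 0.28, 0.36, and 0.45 at 0, 0.5, 1, and 2 h (SE 0.10 each, highest adjusted p = 0.0206), and without replicate 4 they were 0.38, 0.28, 0.31, and 0.37, all called. The call at 0.5 h was lost without RSKi47 replicate 1 or 3 or WT replicate 5, with values of 0.25 to 0.31 over all such fits. In Map3k8[D270A] cells no difference was called, with values from -0.24 to -0.16, and both sets lay below WT at each time. The first set alone gave -0.25, -0.28, -0.24, and -0.24 at the 4 times, and the second -0.24, -0.043, -0.24, and -0.20, the last against a single WT library. These values are given without a test, since the sets were chosen from the data. Elk1-/-Elk4-/- cells had a called difference at 0.5 h (0.28 ± 0.10, adjusted p = 0.0183), lost without Elk1-/-Elk4-/- replicate 4 or WT replicate 5 (0.19 to 0.35 over the fits without single libraries). No change of Ptgs1 with LPS differed from that of WT in any arm.

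Ptgs2 had the largest response of the 5 genes in WT cells. Its levels were 7.07, 7.22, and 7.30 (lowest, median, and highest of 6) without LPS and 12.18, 12.50, and 12.77 at 1 h, and 12.70, 12.40, 12.62, and 12.41 in the 4 libraries at 2 h. At 0.5 h replicates 4 to 6 were at 9.37, 9.23, and 9.46 and replicates 7 to 9 at 10.61, 10.48, and 10.62, so the sets did not overlap at that time. The differences from unstimulated cells were 2.76 ± 0.19 at 0.5 h (2.14 in the first and 3.38 in the second set), 5.29 ± 0.19 at 1 h, and 5.33 ± 0.21 at 2 h. Without LPS every library of the series had a Ptgs2 level between 7.05 and 7.34, and no difference between arms was called.

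In Map3k8[D270A] cells Ptgs2 still rose with LPS but to a lower level. At 1 h the 6 libraries were at 11.47, 11.47, 11.48, 11.36, 11.20, and 11.28, all below each WT library, and the difference was -1.12 ± 0.19 (95% CI -1.49 to -0.74, adjusted p = 2.02e-05). At 2 h replicates 1 to 3 were at 11.93, 11.94, and 11.98 and replicates 4 to 6 at 10.84, 10.55, and 10.72. All were below the WT libraries, and the difference was -1.20 ± 0.21 (95% CI -1.63 to -0.78, adjusted p = 9.73e-06). At 0.5 h the groups overlapped, with 9.30, 9.10, 9.18, 9.74, 9.25, and 9.28 in Map3k8[D270A] cells, and the difference of -0.65 ± 0.19 was not called (adjusted p = 0.0659). It was called without Map3k8[D270A] replicate 4 or WT replicate 4, 5, or 6 (-0.80 to -0.52 over the fits without single replicates), with quantile normalization (-0.67, adjusted p = 0.0294), and with all libraries in one fit (adjusted p = 0.011). The change with LPS, less that of WT, was -1.10 ± 0.27 at 1 h (adjusted p = 0.0106) and -1.19 ± 0.28 at 2 h (adjusted p = 0.00166).

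The size of the Ptgs2 difference in Map3k8[D270A] cells depended on the set of replicates. At 0.5 h it was -0.16 in the first set and -1.15 in the second. At 1 h it was -1.23 and -0.998. At 2 h it was -0.62 and -1.71, the latter against a single WT library. Since the sets were chosen from the data, these values and those of Ptgs2 against either WT set are given without a test. The set difference lay in the WT cells at 0.5 h, as the levels above show, and in the Map3k8[D270A] cells at 2 h. Ptgs2 was lower in Map3k8[D270A] cells at 1 and 2 h in both sets.

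**Figure D2:**
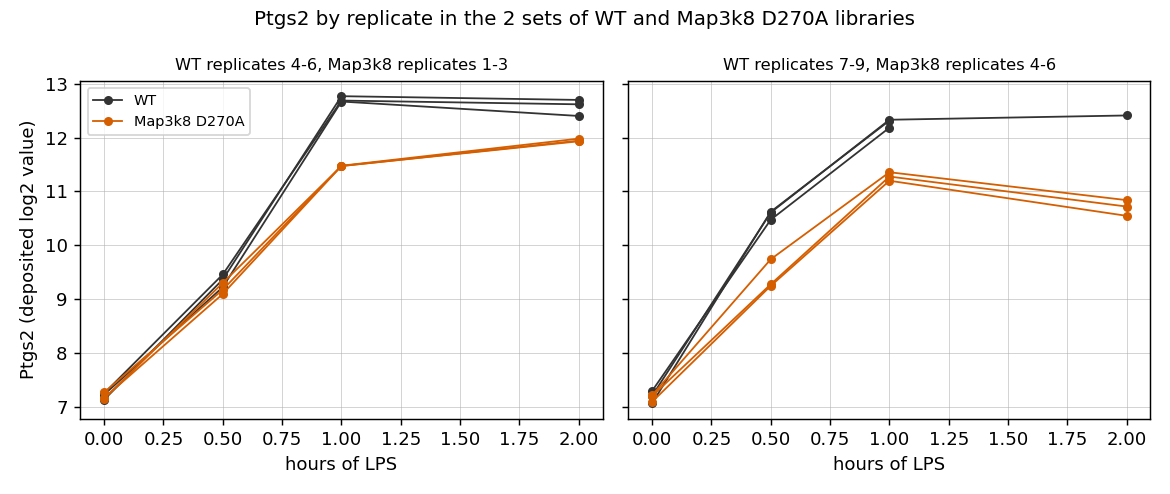
Ptgs2 on the deposited log2 scale (y axis) in WT and Map3k8[D270A] cells against time of LPS in h (x axis), with a panel for each set, each library as a point, and lines between libraries of the same replicate number. At 0.5 h the WT libraries of the 2 sets separate (9.23 to 9.46 and 10.48 to 10.62), and at 2 h the Map3k8[D270A] libraries do (11.93 to 11.98 and 10.55 to 10.84).

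Nfkb1[SS/AA] cells also had less Ptgs2 at 1 h. The libraries were at 10.17, 10.97, and 11.23 (lowest, median, and highest of 6), below all WT libraries, a difference of -1.64 ± 0.16 (95% CI -1.96 to -1.31, adjusted p = 8.53e-15). The rise from unstimulated cells, less that of WT, was -1.66 ± 0.23 (adjusted p = 2.50e-08). At 0.5 h the levels were 9.62, 9.77, and 10.13, within the WT range, and the difference was -0.16 (adjusted p = 0.493). That value depended on the WT set: it was 0.45 against replicates 4 to 6 and -0.77 against replicates 7 to 9. At 1 h Ptgs2 was also lower than in Map3k8[D270A] cells (-0.52 ± 0.16, adjusted p = 0.00591), a call lost without Nfkb1[SS/AA] replicate 2, the lowest library (-0.38, adjusted p = 0.0541).

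Elk1-/-Elk4-/- cells did not share the lower Ptgs2 of Map3k8[D270A] cells at 1 h. At 1 h their libraries were at 12.24, 12.31, 12.40, and 12.52, within the WT range (difference -0.12, 95% CI -0.54 to 0.30, adjusted p = 0.645). At 2 h they were at 12.20, 12.21, 12.10, and 12.25, below the 4 WT libraries, but the difference of -0.34 was not called (95% CI -0.80 to 0.12, adjusted p = 0.219). That interval uses 1 spread shared by all groups of the fit. For Ptgs2 the SD was 0.67 in WT at 0.5 h and 0.69 in Map3k8[D270A] cells at 2 h. It was 0.15 in WT and 0.067 in Elk1-/-Elk4-/- cells at 2 h. Set directly against Map3k8[D270A] cells, Ptgs2 was higher by 0.99 ± 0.21 at 1 h (adjusted p = 8.93e-05) and by 0.86 ± 0.21 at 2 h (adjusted p = 0.000579). At 2 h these libraries lay closer to Map3k8[D270A] replicates 1 to 3 (11.93 to 11.98) than to replicates 4 to 6 (10.55 to 10.84). At 0.5 h it was called higher than in WT, by 0.56 ± 0.21 (adjusted p = 0.0263), with 10.51, 10.32, 10.45, and 10.81. The call was lost without Elk1-/-Elk4-/- replicate 1 or 4 or WT replicate 4, 5, or 6 (0.41 to 0.69 over the fits without single libraries), and the difference was -0.05 against WT replicates 7 to 9 alone.

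With the inhibitors no difference in Ptgs2 was called at 1 h. PD0325901-treated cells were at 9.76, 9.80, and 9.83 (lowest, median, and highest of 6) at 0.5 h and 12.07, 12.15, and 12.33 at 1 h. The differences from WT were -0.17 ± 0.16 at 0.5 h (adjusted p = 0.462) and -0.31 ± 0.16 at 1 h (95% CI -0.63 to 0.01, adjusted p = 0.13). At 0.5 h the value was 0.44 against WT replicates 4 to 6 and -0.78 against replicates 7 to 9, and at 1 h it was -0.53 and -0.094. At 1 h Ptgs2 was higher with PD0325901 than in Map3k8[D270A] cells by 0.81 ± 0.16 (adjusted p = 3.82e-05), and the groups did not overlap. With RSKi47 it was at 9.44, 9.40, and 9.53 at 0.5 h, at 12.94, 12.06, 12.12, and 11.84 at 1 h, and at 12.97, 13.37, 13.31, and 12.51 at 2 h. The direction of the difference from WT turned over this time course: -0.50 ± 0.20 at 0.5 h (adjusted p = 0.0307), -0.25 ± 0.18 at 1 h (adjusted p = 0.246), and 0.51 ± 0.20 at 2 h (adjusted p = 0.026). At 1 h the value moved to -0.48 without RSKi47 replicate 1, the highest library, and was then called (adjusted p = 0.0323), and it was -0.47 against WT replicates 4 to 6 and -0.036 against replicates 7 to 9. The call at 0.5 h rested on the second WT set, since the value against WT replicates 4 to 6 was 0.11, and it was lost without any single RSKi47 library or any of WT replicates 7 to 9 (-0.65 to -0.37). The call at 2 h was lost without RSKi47 replicate 2 or 3 or WT replicate 5 or 7 (0.40 to 0.69). None of the changes of Ptgs2 with LPS under either inhibitor differed from WT (lowest adjusted p = 0.243).

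Ptges followed LPS more slowly. WT levels were 5.07, 5.17, and 5.28 (lowest, median, and highest of 6) without LPS, 5.02, 5.22, and 5.37 at 0.5 h, and 6.21, 6.48, and 6.69 at 1 h. At 2 h the 4 libraries were at 8.54, 8.36, 8.56, and 8.64. Ptges thus began to rise between 0.5 and 1 h, with differences of 0.04 ± 0.10 at 0.5 h, 1.31 ± 0.10 at 1 h, and 3.35 ± 0.11 at 2 h.

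Ptges in Map3k8[D270A] cells rose at the same times and fell short at 2 h. Its levels at 1 h were 6.04, 6.32, and 6.63 (difference -0.16 ± 0.10, adjusted p = 0.398), and at 2 h they were 8.20, 7.998, 7.97, 8.10, 7.73, and 7.63, below each WT library. The difference at 2 h was -0.59 ± 0.11 (95% CI -0.81 to -0.36, adjusted p = 5.50e-05), with -0.43 in the first and -0.82 in the second set. The change with LPS at 2 h, less that of WT, was -0.55 ± 0.15 (adjusted p = 0.00762). In Elk1-/-Elk4-/- cells the libraries at 2 h were at 8.28, 8.20, 7.93, and 8.40, overlapping WT. Their difference was -0.33 ± 0.12 (adjusted p = 0.0253), a call lost in 5 of the 8 fits that left out a library of these groups (-0.39 to -0.23), and the change with LPS did not differ (-0.24, adjusted p = 0.36).

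RSKi47 and Nfkb1[SS/AA] libraries had more Ptges than WT before LPS and a smaller rise after it. With RSKi47 the libraries were at 5.88, 5.87, 5.90, and 6.44 without LPS, above all WT libraries, and at 7.25, 7.42, 7.29, and 7.72 at 2 h, below all WT libraries. The differences were 0.85 ± 0.12 without LPS (adjusted p = 2.27e-09), 0.75 ± 0.13 at 0.5 h (adjusted p = 1.02e-06), 0.06 ± 0.12 at 1 h (adjusted p = 0.713), and -1.11 ± 0.13 at 2 h (95% CI -1.36 to -0.85, adjusted p = 6.54e-12). The rise with LPS, less that of WT, was -0.80 ± 0.17 at 1 h (adjusted p = 0.000572) and -1.96 ± 0.18 at 2 h (adjusted p = 5.05e-16). Without replicate 4 these were -0.73 and -1.92. In Nfkb1[SS/AA] cells Ptges was at 5.44, 5.79, and 6.26 (lowest, median, and highest of 6) without LPS, above all WT libraries, and at 6.12, 6.29, and 6.74 at 1 h, overlapping the WT libraries. The differences were 0.67 ± 0.11 without LPS (adjusted p = 2.94e-07), 0.44 ± 0.11 at 0.5 h (adjusted p = 0.00067), and -0.17 ± 0.11 at 1 h (adjusted p = 0.203), and the rise at 1 h, less that of WT, was -0.84 ± 0.15 (adjusted p = 1.94e-05). PD0325901-treated cells were at 5.14, 5.28, and 5.35 at 0.5 h and at 6.19, 6.40, and 6.58 at 1 h, with no called difference from WT (0.05 and -0.10). Their rise at 1 h, measured from PD0325901 alone for 70 min and less that of WT, was -0.48 ± 0.17, which was not called (adjusted p = 0.112).

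**Figure D3:**
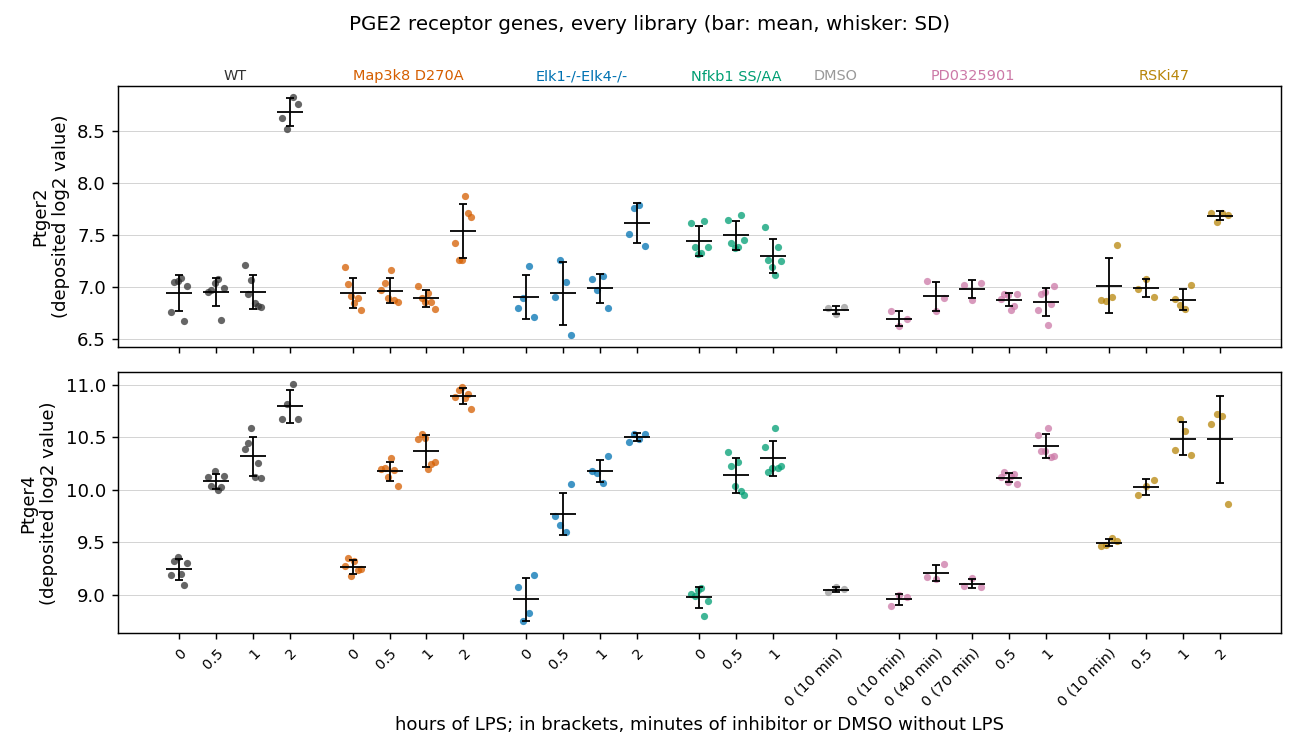
Levels of Ptger2 and Ptger4 on the deposited log2 scale (y axis) in the 25 groups (x axis). Each point is a library, each bar the mean of its group, and each whisker its SD. Ptger2 stays between 6.54 and 7.69 until 2 h of LPS, when WT libraries reach 8.52 to 8.82 and those of Map3k8[D270A], Elk1-/-Elk4-/-, and RSKi47-treated cells 7.26 to 7.87, and Ptger4 rises in every arm.

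Ptger2, the EP2 receptor gene, was flat for 1 h of LPS and then rose. WT levels were 6.67, 7.03, and 7.09 (lowest, median, and highest of 6) without LPS and 6.80, 6.89, and 7.21 at 1 h. The 4 libraries at 2 h were at 8.63, 8.52, 8.82, and 8.76, a difference from unstimulated cells of 1.74 ± 0.11, after 0.01 at both 0.5 and 1 h. This late rise was much smaller in each of the other 3 arms sampled at 2 h. Map3k8[D270A] libraries were at 7.42, 7.26, 7.26, 7.87, 7.71, and 7.67, Elk1-/-Elk4-/- libraries at 7.51, 7.76, 7.78, and 7.39, and RSKi47 libraries at 7.71, 7.62, 7.71, and 7.69. No library of these arms reached the lowest WT library.

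The Ptger2 difference from WT at 2 h was -1.15 ± 0.11 in Map3k8[D270A] cells (95% CI -1.37 to -0.92, adjusted p = 5.07e-12), -1.07 ± 0.12 in Elk1-/-Elk4-/- cells (95% CI -1.32 to -0.82, adjusted p = 2.76e-10), and -0.997 ± 0.11 with RSKi47 (95% CI -1.22 to -0.78, adjusted p = 4.91e-13). The 3 values share the 4 WT libraries at 2 h. They kept to -1.21 to -1.09, -1.13 to -0.997, and -1.05 to -0.95 when single libraries were left out, and the Map3k8[D270A] value was -1.34 in the first and -1.002 in the second set. The change with LPS at 2 h, less that of WT, was -1.15 ± 0.15 (adjusted p = 6.04e-08), -1.03 ± 0.17 (adjusted p = 7.14e-06), and -1.07 ± 0.15 (adjusted p = 1.37e-08), in the same order. Elk1-/-Elk4-/- cells set directly against Map3k8[D270A] cells differed by 0.08 ± 0.11 at 2 h (95% CI -0.15 to 0.30, adjusted p = 0.592). The rise itself was not lost: in Map3k8[D270A] cells Ptger2 was higher at 2 h than without LPS by 0.59 ± 0.10 (adjusted p = 5.97e-07).

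At the earlier times Ptger2 in Map3k8[D270A], Elk1-/-Elk4-/-, PD0325901-treated, and RSKi47-treated cells was within 0.10 of WT, with no call. In Nfkb1[SS/AA] cells, which have no libraries at 2 h, it was higher than in WT at all 3 times. The levels were 7.32, 7.38, and 7.63 (lowest, median, and highest of 6) without LPS, 7.37, 7.44, and 7.69 at 0.5 h, and 7.11, 7.25, and 7.57 at 1 h. The differences were 0.50 ± 0.09 (adjusted p = 4.04e-06), 0.55 ± 0.09 (adjusted p = 6.32e-07), and 0.35 ± 0.09 (adjusted p = 0.000965), and the last was 0.22 and not called against WT replicates 4 to 6 alone (adjusted p = 0.104). Since the change with LPS did not differ from WT (0.04 and -0.16), this difference was present before LPS.

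Ptger4, the EP4 receptor gene, rose with LPS in every arm, and no difference from WT was called in Map3k8[D270A] cells. WT levels were 9.10, 9.25, and 9.36 (lowest, median, and highest of 6) without LPS, 10.00, 10.08, and 10.18 at 0.5 h, and 10.12, 10.32, and 10.58 at 1 h, and the 4 libraries at 2 h were at 10.68, 10.82, 11.01, and 10.68. The differences from unstimulated cells were 0.84 ± 0.07, 1.07 ± 0.07, and 1.55 ± 0.08. Map3k8[D270A] libraries overlapped WT at each time, at 10.77, 10.90, and 10.98 at 2 h, with a difference of 0.10 ± 0.08 (95% CI -0.06 to 0.26, adjusted p = 0.383). In Elk1-/-Elk4-/- cells it was lower without LPS and at 0.5 and 2 h, with 9.07, 8.75, 8.83, and 9.19 without LPS and 10.46, 10.53, 10.48, and 10.53 at 2 h. The differences from WT were -0.29 ± 0.08 (adjusted p = 0.00265), -0.31 ± 0.08 (adjusted p = 0.00138), -0.14 ± 0.08 (adjusted p = 0.156), and -0.29 ± 0.09 (adjusted p = 0.00494) at 0, 0.5, 1, and 2 h, and the changes with LPS did not differ from WT (-0.01 at 2 h, adjusted p = 0.98). At 2 h Elk1-/-Elk4-/- cells were also lower than Map3k8[D270A] cells (-0.39 ± 0.08, adjusted p = 6.19e-05), with no overlap. Nfkb1[SS/AA] cells were lower without LPS only (-0.27 ± 0.08, adjusted p = 0.006). The RSKi47 result at 2 h rested on 1 library: the values were 10.63, 10.72, 10.70, and 9.87, and the difference of -0.31 ± 0.10 (adjusted p = 0.00471) was -0.11 without replicate 4 (adjusted p = 0.312). Without LPS RSKi47 libraries were higher, at 9.46, 9.47, 9.54, and 9.52 (0.25 ± 0.09, adjusted p = 0.0127). The smaller rise at 2 h with RSKi47 (-0.57 ± 0.13, adjusted p = 0.00062) was -0.36 without replicate 4 (adjusted p = 0.0318).

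**Figure D4:**
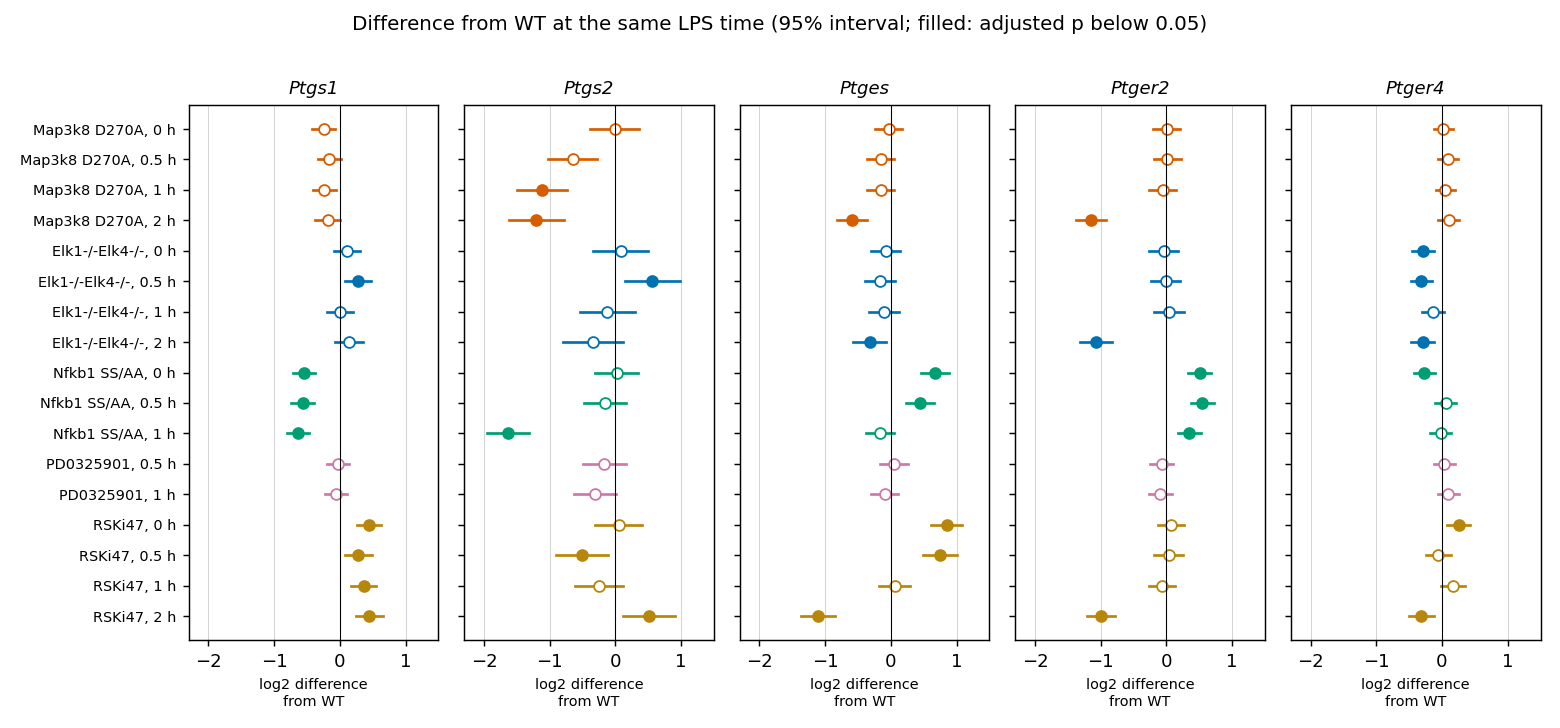
Differences of the 5 genes from WT on the deposited log2 scale (x axis) at each time of LPS for Map3k8[D270A], Elk1-/-Elk4-/-, Nfkb1[SS/AA], PD0325901-treated, and RSKi47-treated cells, with points for the difference (filled where called) and bars for its 95% confidence interval. Ptger2 lies near -1 at 2 h in the 3 arms sampled at that time, and Ptgs2 lies below -1 at 1 h in Map3k8[D270A] and Nfkb1[SS/AA] cells only.

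The number of members called was read against the share of all genes called in the same comparison, since many genes differed in some of them. In WT cells 2 of the 5 were called with LPS at 0.5 h (Ptgs2 and Ptger4), where 11.6% of 11884 genes were called, 3 at 1 h (with Ptges; 46.8%), and all 5 at 2 h (71.5%). Against WT, 0 members were called in unstimulated Map3k8[D270A] cells (1.44% of genes) and 0 at 0.5 h (1.37%), Ptgs2 alone was at 1 h (9.79%), and 3 were at 2 h (27.7%). In Elk1-/-Elk4-/- cells they were 1 (51.8%), 3 (44.4%), 0 (53.4%), and 3 (50.8%), above the share of all genes at 0.5 and 2 h and below it without LPS and at 1 h. In Nfkb1[SS/AA] cells 4 were called without LPS (32%), 3 at 0.5 h (32.3%), and 3 at 1 h (42.5%), out of 11971 genes. With PD0325901 and LPS none was called at 0.5 h (29.4%) or 1 h (35.7%). With RSKi47 the counts were 3 in unstimulated cells (53%), 3 after 0.5 h (48.2%), 1 after 1 h (52.8%), and 5 after 2 h (52.1%).

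For the change with LPS relative to that of WT, fewer genes were called than in the direct comparisons with WT. In Map3k8[D270A] cells none of the 5 was called at 0.5 h (0.109% of genes), Ptgs2 was at 1 h (2.02%), and Ptgs2, Ptges, and Ptger2 were at 2 h (15.5%). In Elk1-/-Elk4-/- cells none was at 0.5 h (0.0589%) or 1 h (1.35%), and Ptger2 was at 2 h (16.9%). In Nfkb1[SS/AA] cells none was at 0.5 h (0.309%), and Ptgs2 and Ptges were at 1 h (6.07%). With PD0325901 none was at 0.5 h (1.49%) or 1 h (3.58%), and with RSKi47 none was at 0.5 h (0.0251%), Ptges was at 1 h (5.54%), and Ptges, Ptger2, and Ptger4 were at 2 h (21%). Between arms, 3 members were called for Elk1-/-Elk4-/- against Map3k8[D270A] cells at 1 h (51.6%) and 3 at 2 h (49.6%), 2 lower (Ptgs1 and Ptgs2, where 24.6% of genes were lower) and 1 higher (Ptger2, 22.7%) in Nfkb1[SS/AA] than in Map3k8[D270A] cells at 1 h, 1 for PD0325901 against Map3k8[D270A] cells at 1 h (40.7%), and 1, Ptgs1, for RSKi47 against PD0325901 at 1 h (53.9%).

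Without LPS, neither the solvent nor PD0325901 gave a called difference in the members. Ptgs2 was at 7.21, 7.13, and 7.17 in DMSO libraries and between 7.05 and 7.24 in the 9 PD0325901 libraries. Of the 5 genes 0 were called for DMSO against unstimulated WT (23.6% of genes), 0 for PD0325901 against DMSO at 10 min (0%), 0 for PD0325901 at 40 against 10 min (3.58%), and 0 at 70 against 10 min (6.09%). For PD0325901 against DMSO limma called 0 genes of 11971, and 245 had an unadjusted p below 0.05. Ptges was higher with PD0325901 at 40 min than at 10 min by 0.38 ± 0.15, at 5.56, 5.73, and 5.47 against 5.08, 5.09, and 5.43, which was not called (adjusted p = 0.165).

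Of 41 other genes, those of arachidonate release, prostanoid synthesis, reception, and breakdown and of the leukotriene branch with 2 noncoding transcripts beside Ptgs2, 29 could be tested, Ptgs2os2 among them. With LPS in WT cells 0 rose or fell at 0.5 h, 6 rose and 2 fell at 1 h, and 6 rose and 9 fell at 2 h. These were 0%, 27.6%, and 51.7% of the 29, against 11.6%, 46.8%, and 71.5% of all genes (medians of the 29 differences -0.03, -0.02, and -0.07, against -0.0043, 0.00018, and -0.018 over all genes tested). At 2 h Ptgir, the prostacyclin receptor, rose by 1.06, the co-chaperone and cytosolic prostaglandin E synthase Ptges3 by 0.66, and the phospholipase gene Pla2g4b by 0.54. The lysosomal phospholipase gene Pla2g15 fell by 0.71, the leukotriene receptor gene Cysltr1 by 0.55, and Ptger1, the EP1 receptor, by 0.51. Ptgs2os2, a noncoding transcript on the opposite strand downstream of Ptgs2, rose by 1.39 at 1 h and 2.18 at 2 h.

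None of the 29 was called in Map3k8[D270A] cells without LPS or at 0.5 h, 3 were lower at 1 h (10.3% of the 29, against 9.79% of all genes), and 3 were higher and 4 lower at 2 h (24.1% against 27.7%). Ptgs2os2 was the gene lower by at least 0.5 (-0.69 ± 0.09 at 2 h, adjusted p = 7.04e-08). Its change with LPS at 2 h, less that of WT, was -0.66 ± 0.13 (adjusted p = 0.000106). Its direction was not always that of Ptgs2. With RSKi47 at 2 h Ptgs2 was higher, in a call lost without some single replicates, and its change with LPS did not differ from WT. Ptgs2os2 was lower there (-0.41 ± 0.11, adjusted p = 0.00066, and -0.60 ± 0.14 for the change with LPS less that of WT, adjusted p = 0.000787). In Elk1-/-Elk4-/- cells Ptgs2os2 was lower at 1 and 2 h (-0.25 and -0.27), the direction that Ptgs2 also had there without a call. In Elk1-/-Elk4-/- cells 8, 8, 7, and 10 were higher and 7, 8, 9, and 7 lower at 0, 0.5, 1, and 2 h, in all 51.7%, 55.2%, 55.2%, and 58.6% of the 29, near the 51.8%, 44.4%, 53.4%, and 50.8% of all genes called. The secretory phospholipase gene Pla2g5 was higher by 0.93, 0.66, 0.92, and 0.68, and Hpgd, which encodes the enzyme that inactivates prostaglandin E2, was lower (-0.91, -0.84, and -0.91) at 0, 0.5, and 1 h. At 1 h the thromboxane synthase gene Tbxas1 was lower (-0.51), and at 2 h Pla2g2e and Cysltr1 were higher by 0.55 and 0.62. In Nfkb1[SS/AA] cells 5, 6, and 4 were higher and 7, 8, and 9 lower (41.4%, 48.3%, and 44.8%, against 32%, 32.3%, and 42.5% of all genes). Hpgd was lower (-0.91, -0.84, and -0.79), Ptger3, the EP3 receptor, was higher by 0.76 and 0.63 at 0 and 0.5 h, Pla2g5 was lower at 0.5 h (-0.52), and Ptgir was lower at 1 h (-0.56).

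With PD0325901 5 and 4 of the 29 were higher and 6 and 7 lower at 0.5 and 1 h (37.9% each, against 29.4% and 35.7% of all genes). Ptger3 was higher by 0.69 and 0.58, the leukotriene C4 synthase gene Ltc4s was lower (-0.53 and -0.56), and Pla2g4b was lower at 0.5 h (-0.60). DMSO libraries without LPS or inhibitor already differed from unstimulated WT in Ptger3 (0.46 ± 0.13, adjusted p = 0.00516) and Ltc4s (-0.50 ± 0.12, adjusted p = 0.000723). With RSKi47 8, 6, 5, and 7 were higher and 10, 11, 10, and 10 lower (62.1%, 58.6%, 51.7%, and 58.6%, against 53%, 48.2%, 52.8%, and 52.1% of all genes). Akr1b3, an aldose reductase that can reduce prostaglandin H2, was lower (-2.17, -1.74, -1.44, and -1.40) at the 4 times, and Alox5, the 5-lipoxygenase gene that begins leukotriene synthesis, was higher by 1.35, 1.36, 1.36, and 1.37, so both differences were present without LPS. Pla2g4b was lower from 0.5 to 2 h (-1.01, -0.76, and -0.73) and Pla2g2e at 0 and 1 h (-0.54 and -0.58), and Ptger1 was higher by 0.53 at 2 h.

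The genes whose group means followed each member most closely, by Pearson correlation over the 25 groups among 11971 genes, are given as a description. The points share WT libraries, experiments, and the LPS time course. For Ptgs2 they were Sdc4, a heparan sulfate proteoglycan (0.99), the cytokine Il1b (0.98), and the chemokine Ccl3 (0.98), and for Ptger4 the signalling regulators Socs3 (0.96) and Gadd45b (0.95) and the transcription factor Irf1 (0.95). For Ptges they were Cpd, Arhgap31, and Rhog (0.97 each), for Ptger2 4931440P22Rik (0.92), 6530402F18Rik (0.89), and the calcineurin subunit gene Ppp3cc (0.88), and for Ptgs1 Lsr (0.92), Ston2 (0.86), and Kif5a (0.86). Among the members, Ptgs2 and Ptger4 were most alike (0.92), Ptges and Ptger2 came next (0.76), and Ptgs1 had negative values with the other 4 (-0.41 to -0.08).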

How the data were processed

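Total RNA of 119 BMDM libraries was sequenced, and the authors' TruSeq single-end, strand-specific reads were aligned and counted per mm10 RefSeq gene with STAR and RSEM (per the labels, versions 2.5.1b and 1.2.29) and compared by the authors with DESeq2 (1.10.1). The deposited values are on a log2 scale and normalised across libraries, with 1 value for each of 18098 genes, and no source used here names the transformation. A single value above 25 was set to missing (not of a member), and 0 columns could not be mapped to a sample. Groups came from the labels.

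For each comparison limma 3.58.1 (R 4.3.3) was fitted with group means that share 1 variance per gene. Comparisons among WT, Map3k8[D270A], and Elk1-/-Elk4-/- cells used their 62 libraries and the 11884 genes that reached 10 on the linear scale in 4 of them, and the rest used all libraries and 11971 genes (10 in 3 libraries). The code was tested on simulated data. p values were adjusted by Benjamini-Hochberg over all genes, and a call is an adjusted p below 0.05. Named genes are the 5 members, pathway genes called with a difference of at least 0.5, and the 3 genes most correlated with each member. The members and lists were chosen with earlier results of these data known. Alternatives were quantile normalization, median centring, a limma trend, no filter, a 2-fold threshold, all libraries in one fit, the sets of replicates, PD0325901 replicates averaged in pairs, replicate blocks, and leaving out each replicate. Libraries of the same number deviated together across times in WT (30 of 30 correlations over 0.1) and Nfkb1[SS/AA] cells (18 of 18), less so with PD0325901 (14 of 33), but not between WT and Map3k8[D270A] cells (0 of 12), and the labels do not say what a number stands for. Upstream sequences and gene positions are from RefSeq (GRCm38.p6), matched by symbol for 5 of 5 genes.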

Additional observations from a re-analysis of the deposited data

Results flagged for a closer look

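Of 100 groups of 4 to 10 libraries looked at over the 5 genes, 8 held a library far from the others, and chance alone gives about 1 in 20. Of the 8, 4 were RSKi47 replicate 4. Ptgs1 was 7.64 there at 2 h against 7.30 to 7.35 in the other RSKi47 libraries, Ptges was 6.44 at 10 min against 5.87 to 5.90, Ptger2 was 7.40 at 10 min against 6.86 to 6.90, and Ptger4 was 9.87 at 2 h against 10.63 to 10.72. Ptgs1 was 6.89 in Elk1-/-Elk4-/- replicate 3 at 1 h against 7.32 to 7.40. Ptgs2 was 9.74 in Map3k8[D270A] replicate 4 at 0.5 h against 9.10 to 9.30. Ptges was 6.74 in Nfkb1[SS/AA] replicate 4 at 1 h against 6.12 to 6.31. Ptger2 was 6.68 in WT replicate 8 at 0.5 h against 6.95 to 7.07.

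The change with LPS differed between genotypes or inhibitors and WT in 11 cases by the limma test of the difference itself, on the deposited log2 scale. For Ptgs2 it was -1.10 at 1 h and -1.19 at 2 h in Map3k8[D270A] cells and -1.66 at 1 h in Nfkb1[SS/AA] cells. For Ptges it was -0.55 at 2 h in Map3k8[D270A] cells, -0.84 at 1 h in Nfkb1[SS/AA] cells, and -0.80 at 1 h and -1.96 at 2 h with RSKi47. For Ptger2 at 2 h it was -1.15 in Map3k8[D270A] cells, -1.03 in Elk1-/-Elk4-/- cells, and -1.07 with RSKi47, and for Ptger4 at 2 h with RSKi47 it was -0.57. These comparisons share the WT libraries.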

How the results depend on the processing

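Over the 42 comparisons there were 210 single results for the 5 genes, of which 65 were called. Alternatives other than leaving out replicates gave 1670 values: 65 lost a call, 30 gained one, 5 that were called in either fit changed direction, and 1570 kept their side of the threshold, of which 69, called in neither fit, changed sign. Leaving out single replicates, each with its libraries at all times, gave 2170 values, of which 40 lost and 13 gained a call, 0 that were called changed direction, and 77 that were called in neither fit changed sign. Some of these fits left out libraries outside the comparison, which touched only the shared spread. Median centring and a limma trend changed 0 of 210 each. The tallies include fits on the sets of replicates, which were chosen from the data, so they are a description.

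Changes of direction concerned Ptgs2 at 0.5 h through the WT set: against WT replicates 4 to 6 it was 0.45 in Nfkb1[SS/AA], 0.44 in PD0325901-treated, and 0.11 in RSKi47-treated cells, and against replicates 7 to 9 it was -0.048 in Elk1-/-Elk4-/- cells. Ptgs1 in Elk1-/-Elk4-/- cells at 1 h was 0.28 with replicate number across arms as a replicate block. The sets' levels at 0.5 h are given above. The cause was not tested.

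For the number of members called against WT, Map3k8[D270A] cells at 0.5 h gave 1 with quantile normalization and with all libraries in one fit, and 2 with the replicate block across arms. At 1 h they gave 2 with that block. Elk1-/-Elk4-/- cells gave 3 without LPS and 3 at 1 h with the block. Counts within the sets of replicates or against either WT set are not given, since the sets were chosen from the data. With a 2-fold threshold the counts were 1 in WT at 0.5 h, 0, 0, and 1 in Elk1-/-Elk4-/- cells at 0, 0.5, and 2 h, 0, 0, and 1 in Nfkb1[SS/AA] cells at 0, 0.5, and 1 h, and 0, 0, 0, and 1 with RSKi47. Leaving out a replicate gave 0 to 1 and 1 to 2 in Map3k8[D270A] cells at 0.5 and 1 h, 1 to 3 in Elk1-/-Elk4-/- cells at 0.5 h, and 1 to 3 and 1 to 2 with RSKi47 at 0.5 and 1 h.

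Same-numbered WT and Map3k8[D270A] libraries at one time correlated negatively (-0.45 to -0.06), and equal numbers fall in different sets of replicates, so the number does not pair these arms. The block across arms changed 14 of 85 single results. The replicate block by culture within an arm changed 1 of 80, the rise of Ptges with PD0325901 at 1 h relative to WT (-0.45), which it called, although same-numbered libraries of those PD0325901 groups did not deviate together (-0.27 to -0.029). Depth is unknown, and each group has 3 to 6 libraries. A detection limit was not computed, and a difference that was not called may lie anywhere within its confidence interval.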
